A study of Mus musculus with 6 samples.

Results

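Metallothioneins bind zinc, copper and other metals, ferritin stores iron, and a small set of transporters and receptors moves iron between and across cells. Data on 8 genes of these kinds (Mt1, Mt2, Mt3, Fth1, Ftl1, Trf, Tfrc and Slc40a1) were taken from a single-cell RNA sequencing experiment on mouse retina. The genes were chosen by name, with earlier results of these data known. They are 8 of 52636 genes in the count table, and all 8 were found by their Ensembl identifiers. The retinas came from 12-month-old male C57BL/6J mice, 3 Dram2 wt/wt (the labels write WT) and 3 Dram2 ko/ko (KO). The ko/ko mice carry a constitutive deletion around exon 4 of Dram2, which encodes a lysosomal membrane protein, in all cells, and the labels name no treatment for either group. Replicate 3 of each genotype formed batch 1 and replicates 1 and 2 formed batch 2, by the labels.

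Libraries were made with the 10x Genomics 3′ v2 chemistry, which counts each captured RNA molecule as 1 UMI (unique molecular identifier) whatever the length of the transcript. The 6 retinas gave 46375 cells and 3463728 to 6563762 UMIs each, and 45746 cells carried 1 of 5 cell types assigned by the authors: 42359 photoreceptors, 2083 interneurons, 942 glia, 246 mesenchymal cells and 116 retinal pigment epithelium (RPE) cells, 10 to 25 RPE cells per retina. Levels are given as CPM, the UMIs of a gene scaled to 1000000 UMIs of its cell type in 1 retina, and errors are SD over retinas. Mitochondrial genes took 2.75% and 3.22% of the UMIs in the retinas of batch 1 and 0.405% to 0.720% in those of batch 2. Dram2 itself was at 28.1, 35.2 and 56.6 CPM in wt/wt replicates 1 to 3 and at 27.4, 33.9 and 53.6 CPM in ko/ko replicates 1 to 3, and since 3′ tags lie outside the deleted exon these values do not check the genotype labels. Of the marker genes listed for each type, 7 of 7 for photoreceptors, 9 of 9 for interneurons, 7 of 8 for glia, 7 of 8 for RPE cells, 10 of 10 microglial and 9 of 12 vascular markers of mesenchymal cells were highest in their own type. The glial exception was Clu, highest in RPE cells, and the RPE exception was Best1, which had no UMI in RPE cells, while the vascular markers Kdr, Col1a1 and Dcn were highest in glia. The mesenchymal class held cells with mainly microglial and cells with mainly vascular marker UMIs, which are described apart. The vascular cells were not divided further.

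As background, iron enters most cells when transferrin (Trf), loaded with ferric iron, binds the transferrin receptor (Tfrc), and it leaves through ferroportin (Slc40a1), the exporter of cells. Inside the cell, heavy (Fth1) and light (Ftl1) chains build the hollow ferritin shell: the heavy chain oxidises iron and the light chain favours its deposition. Iron regulatory proteins coordinate these genes by binding hairpins in their mRNAs when iron is scarce, which blocks translation from the 5′ UTR of ferritin and ferroportin and protects the receptor's mRNA through its 3′ UTR. Metallothioneins are small cysteine-rich proteins whose genes respond to metals through the transcription factor MTF1, with Mt3 best known from neurons and astrocytes. In the eye the RPE borders the photoreceptors, recycles their outer segments and controls their exchange with the blood.

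The hairpins are shown because they are the feature that links 4 of the 8 genes. They were searched for in GENCODE M21 transcripts as C, 5 stem bases, the loop CAGTGN with N being A, C or T, and 5 bases that pair with the stem. Each is given 5′ to 3′ on the mRNA strand as DNA letters, with the 6-base loop in capitals and coordinates of GRCm38.
Fth1, 5′ UTR, chr19:9982734-9982758, plus strand: cctgcttcaaCAGTGCttgaacgga
Ftl1, 5′ UTR, chr7:45459781-45459805, minus strand: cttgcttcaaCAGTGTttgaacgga
Slc40a1, 5′ UTR, chr1:45925467-45925491, minus strand: acttcagctaCAGTGTtagctaagt
Tfrc, 3′ UTR, chr16:32631221-32631245, plus strand: ttatcggaagCAGTGCcttccataa
Tfrc, 3′ UTR, chr16:32631600-32631624, plus strand: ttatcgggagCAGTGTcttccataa
Tfrc, 3′ UTR, chr16:32631665-32631689, plus strand: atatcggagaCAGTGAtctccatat
Tfrc, 3′ UTR, chr16:32631712-32631736, plus strand: ttatcgggaaCAGTGTttcccataa
The same letters were found in the 5′ UTR of 23 of 21901 protein-coding genes (0.105%) and in the 3′ UTR of 100 (0.457%), so a match describes the sequence and is not a measured site. UMI counts give the amount of mRNA, not its translation.

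The 3 metallothionein genes stand side by side on the plus strand of chromosome 8 in GRCm38, Mt3 at chr8:94152607-94154146, Mt2 at chr8:94172664-94173568 and Mt1 at chr8:94179082-94180327. The 250 bases before each RefSeq start (GRCm38.p6) are shown because all 3 genes were highest in RPE cells. RefSeq entries were matched for 6 of the 8 genes. The core of the metal response element, TGCACNC or TGCGCNC on either strand, is in capitals.
Mt1, chr8:94178839-94179088, plus strand: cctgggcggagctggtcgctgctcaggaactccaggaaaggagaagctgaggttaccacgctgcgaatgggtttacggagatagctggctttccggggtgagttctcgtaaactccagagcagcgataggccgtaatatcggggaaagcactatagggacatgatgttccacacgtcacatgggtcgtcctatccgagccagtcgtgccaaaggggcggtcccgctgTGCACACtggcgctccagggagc
Mt2, chr8:94172368-94172617, plus strand: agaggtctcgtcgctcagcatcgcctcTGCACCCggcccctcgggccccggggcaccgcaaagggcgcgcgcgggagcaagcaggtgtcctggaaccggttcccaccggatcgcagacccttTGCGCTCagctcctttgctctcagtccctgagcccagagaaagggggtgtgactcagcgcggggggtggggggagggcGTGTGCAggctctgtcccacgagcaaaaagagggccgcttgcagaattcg
Mt3, chr8:94152357-94152606, plus strand: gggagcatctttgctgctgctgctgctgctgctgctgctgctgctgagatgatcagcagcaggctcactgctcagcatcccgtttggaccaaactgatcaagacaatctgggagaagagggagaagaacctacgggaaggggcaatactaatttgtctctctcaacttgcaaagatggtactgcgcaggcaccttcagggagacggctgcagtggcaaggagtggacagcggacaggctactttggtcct
The core occurred 1 time in the Mt1 stretch, 3 times in that of Mt2 and 0 times in that of Mt3, while 21.4% of 32851 promoters of this length held it at least once and 1.26% at least 3 times. With the first 50 bases after the start included, the core occurred 3 times for Mt1, 4 times for Mt2 and 1 time for Mt3, against 25.7% of promoters with at least 1, 1.97% with at least 3 and 0.517% with at least 4 in 300 bases. GENCODE also lists transcripts that start further downstream, at 94179211 and 94179241 for Mt1, 94172664 and 94172860 for Mt2 and 94152746 for Mt3, so each stretch and its motif count cover only the start used by RefSeq. Of the other matched genes, Tfrc had 2 listed promoters, 1 with 2 cores in its 250 bases and 1 with 0, and those of Fth1 and Ftl1 held 0.

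Metallothionein mRNA was concentrated in RPE cells. Mt1 was at 25742, 22104 and 28414 CPM in the RPE cells of wt/wt replicates 1 to 3 and at 29787, 26041 and 30867 CPM in those of ko/ko replicates 1 to 3. These values were 2.21% to 3.09% of all UMIs of the RPE cells, and no retina stood apart. In glia Mt1 was at 669 to 1266 CPM and in interneurons at 676 to 907 CPM, in mesenchymal cells at 64.2 to 147 CPM and in photoreceptors at 41.9 to 89.4 CPM. The RPE mean of 27159 CPM was 29.1 times the glial mean of 934 CPM, with every RPE value above every glial value. Glia and interneurons overlapped and could not be ranked, since glia were higher in 3 of 6 retinas.

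Mt2 was likewise highest in RPE cells, at a lower level. It was at 7296, 6541 and 9342 CPM in wt/wt RPE cells and at 8364, 8030 and 7966 CPM in ko/ko RPE cells. The next type was glia, at 153 to 382 CPM, so that the RPE mean was 30.8 times the glial mean, and interneurons overlapped with glia at 164 to 277 CPM. Mesenchymal cells (0 to 61.4 CPM, 11 UMIs in all) and photoreceptors (9.72 to 23.2 CPM) were lowest and overlapped. Mt3, the metallothionein best known from neural tissue, was at 5276, 3797 and 5839 CPM in wt/wt RPE cells and at 4025, 4436 and 6091 CPM in ko/ko RPE cells. Its RPE mean was 24.6 times that of glia, where it was at 127 to 282 CPM, and interneurons had 120 to 164 CPM. All retinas thus held all 3 metallothioneins far higher in RPE cells than in any neural or glial type. Within RPE cells Mt1 exceeded Mt2 by 3.04 to 3.88 times and Mt3 by 4.87 to 7.40 times in UMIs.

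**Figure D1:**
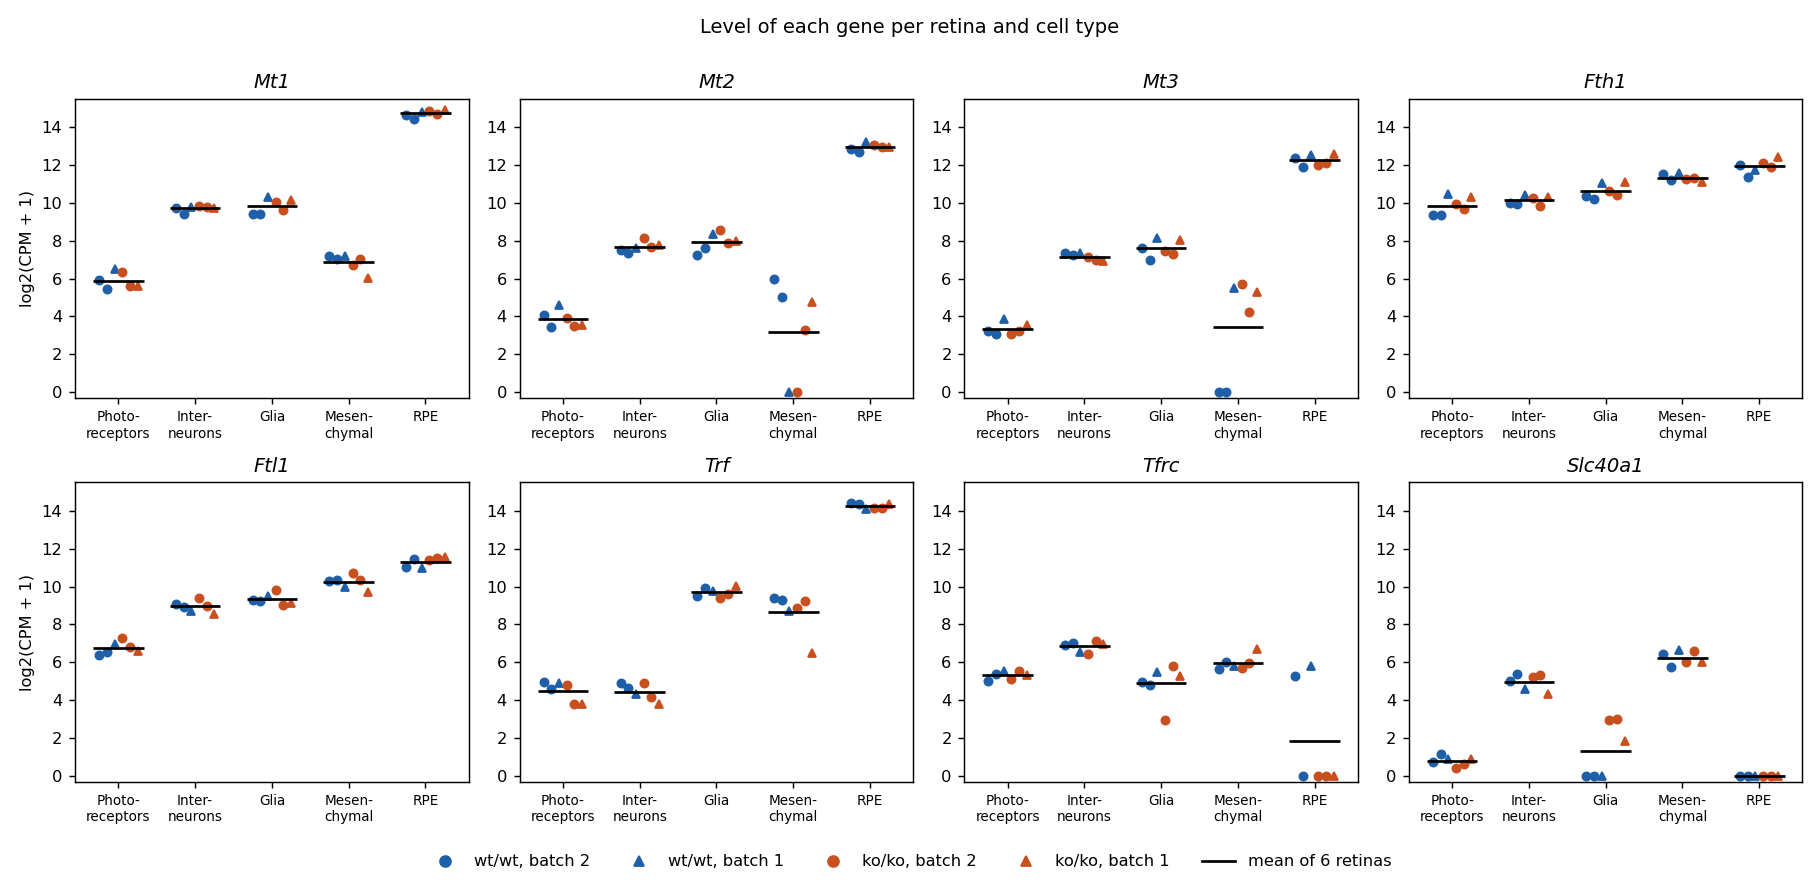
Levels of the 8 genes as log2(CPM + 1), 1 point per retina and 1 bar per cell type for the mean of 6 retinas, with colour for genotype and marker shape for batch. RPE cells hold the highest points for Mt1, Mt2, Mt3, Fth1, Ftl1 and Trf, interneurons for Tfrc and mesenchymal cells for Slc40a1.

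Transferrin mRNA was also abundant in RPE cells, at rank 6 of all genes there by UMIs, where Mt1 was at rank 4. Trf was at 21776, 21428 and 17293 CPM in the RPE cells of wt/wt replicates 1 to 3 and at 18337, 18056 and 20793 CPM in those of ko/ko replicates 1 to 3. Glia followed at 684 to 1033 CPM and mesenchymal cells at 89.9 to 675 CPM, and these 3 types did not overlap with each other. The RPE mean of 19614 CPM was 23.3 times the glial mean. Photoreceptors (12.8 to 29.8 CPM) and interneurons (13.0 to 28.5 CPM) had the least Trf and overlapped.

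Every one of the 116 RPE cells had UMIs of Mt1 and of Trf. Mt1 made up a median of 2.54% of a cell's UMIs, with quartiles at 1.83% and 3.38%, and Trf a median of 1.81%, with quartiles at 1.35% and 2.44%. Mt2 was seen in 110 of the cells, Mt3 in 102, Fth1 in 99 and Ftl1 in 86. Tfrc was seen in 3 cells and Slc40a1 in 0. The levels of Mt1 and Trf in RPE cells therefore did not come from a few cells. RPE cells were 0.254% of the typed cells and 0.548% of their UMIs, but they held 38.5% of the Mt1 UMIs of typed cells, 43.4% of those of Mt2, 38.9% of those of Mt3 and 57.8% of those of Trf. Per retina the RPE share ran from 22.9% to 52.5% for Mt1, 23.6% to 56.9% for Mt2, 25% to 51.4% for Mt3 and 41.9% to 66.3% for Trf. In both retinas of batch 1 interneurons held more Mt1 UMIs than RPE cells, 1247 against 1022 in wt/wt replicate 3 and 1105 against 527 in ko/ko replicate 3. By construction these shares move with the number of RPE cells captured from a retina, as well as with the level per cell. The authors treat RPE cells in these samples as an artifact of how the retina was isolated, so the shares do not describe intact tissue. Glia held 26.4% of the Trf UMIs over all retinas and 16.1% to 48.1% per retina, and in ko/ko replicate 3 they held more of them than RPE cells, 407 against 355.

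**Figure D2:**
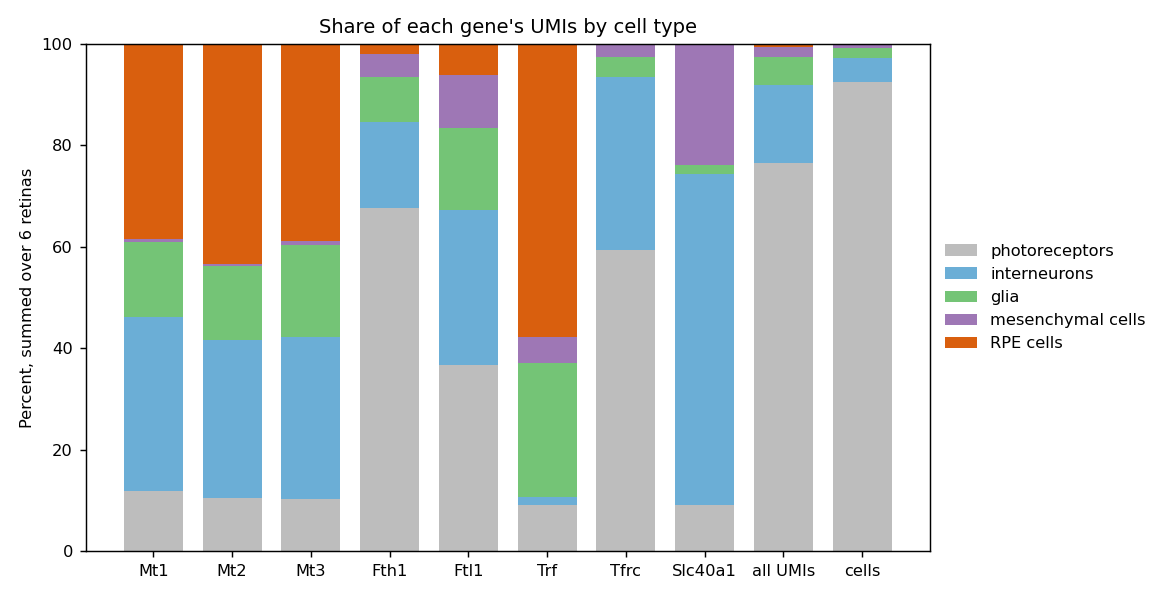
Stacked bars give the percentage of each gene's UMIs found in each of the 5 cell types, summed over 6 retinas, beside the same for all UMIs and for cells. RPE cells take 38.5% of Mt1 (22.9% to 52.5% per retina) and 57.8% of Trf (41.9% to 66.3%) but 0.548% of all UMIs and 0.254% of cells.

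RNA freed from broken cells can give UMIs in cells that do not express a gene, so Mt1 and Trf are given beside Ttr, a transcript that RPE cells hold in abundance. In RPE cells there were 0.265 to 0.392 Mt1 UMIs per Ttr UMI, while interneurons had 10.6 to 27.0 and glia 7.95 to 29.6, without overlap with RPE cells. In photoreceptors this ratio was 0.523 to 1.28. For Trf the ratio was 0.184 to 0.283 in RPE cells and 5.10 to 27.1 in glia, but 0.154 to 0.379 in photoreceptors and 0.241 to 0.455 in interneurons, which overlap with RPE cells. The part of freed RNA in the Trf level of photoreceptors and interneurons was not tested. With each cell thinned to 500 UMIs, cells with a Trf UMI were 0.436% to 1.30% of photoreceptors, 0.491% to 1.87% of interneurons, 24.1% to 34.1% of glia and 98.9% to 100% of RPE cells. Unthinned, they were 0.614% to 1.66% of photoreceptors, 2.61% to 4.26% of interneurons, 43.1% to 59.8% of glia and 100% of RPE cells. Median depth per retina was 397 to 523 UMIs per cell in photoreceptors and 662 to 1720 in RPE cells, and the thinning left out 25689 photoreceptors and 24 RPE cells. Thinned shares for Mt1 were 1.80% to 4.19% of photoreceptors, 24.3% to 28.3% of interneurons, 26.4% to 43.9% of glia and 99.8% to 100% of RPE cells.

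The ferritin chains were spread over all types, and their order was less steep. Fth1 (chr19:9980598-9985098, plus strand) was at 4078, 2631 and 3392 CPM in wt/wt RPE cells and at 4428, 3815 and 5564 CPM in ko/ko RPE cells. Mesenchymal cells came next at 2157 to 3066 CPM, with RPE cells higher in 6 of 6 retinas by a ratio of means of 1.55, although the values of both types overlapped. Glia were at 1185 to 2190 CPM, interneurons at 904 to 1355 CPM and photoreceptors at 651 to 1395 CPM, each overlapping the next. Fth1 was the member with most UMIs in photoreceptors, 20712 in all.

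Ftl1 (chr7:45457944-45459884, minus strand) was at 2095, 2782 and 2057 CPM in wt/wt RPE cells and at 2683, 2884 and 3046 CPM in ko/ko RPE cells. These values did not overlap with mesenchymal cells, at 847.5 to 1664 CPM, and the ratio of means was 2.11. Glia had 523 to 891 CPM, interneurons 373 to 684 CPM and photoreceptors 82.9 to 152 CPM. The light chain thus set photoreceptors apart from every other type without overlap, which the heavy chain did not.

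The ratio of heavy to light chain UMIs differed accordingly. Photoreceptors had ratios of 6.35 to 13.0, while interneurons had 1.77 to 3.46, glia 1.79 to 3.89, mesenchymal cells 1.45 to 3.09 and RPE cells 0.946 to 1.95. No photoreceptor value overlapped with any other type. Within a type the ratio was also compared between the batches. It was 11.3 and 13.0 in photoreceptors of batch 1 against 6.35 to 7.97 in batch 2, and 3.22 and 3.46 against 1.77 to 2.06 in interneurons. In glia it was 2.91 and 3.89 against 1.79 to 2.58, and in mesenchymal cells 2.55 and 3.09 against 1.45 to 2.31. The batches did not overlap in 4 of 5 types, RPE cells being the exception. How many ratios of other genes split in this way was not counted, and the types share the same retinas. The count of 4 of 5 therefore cannot be called unusual. With 2 retinas against 4, an exact two-sided rank-sum test cannot go below p = 0.133, and none is given.

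**Figure D3:**
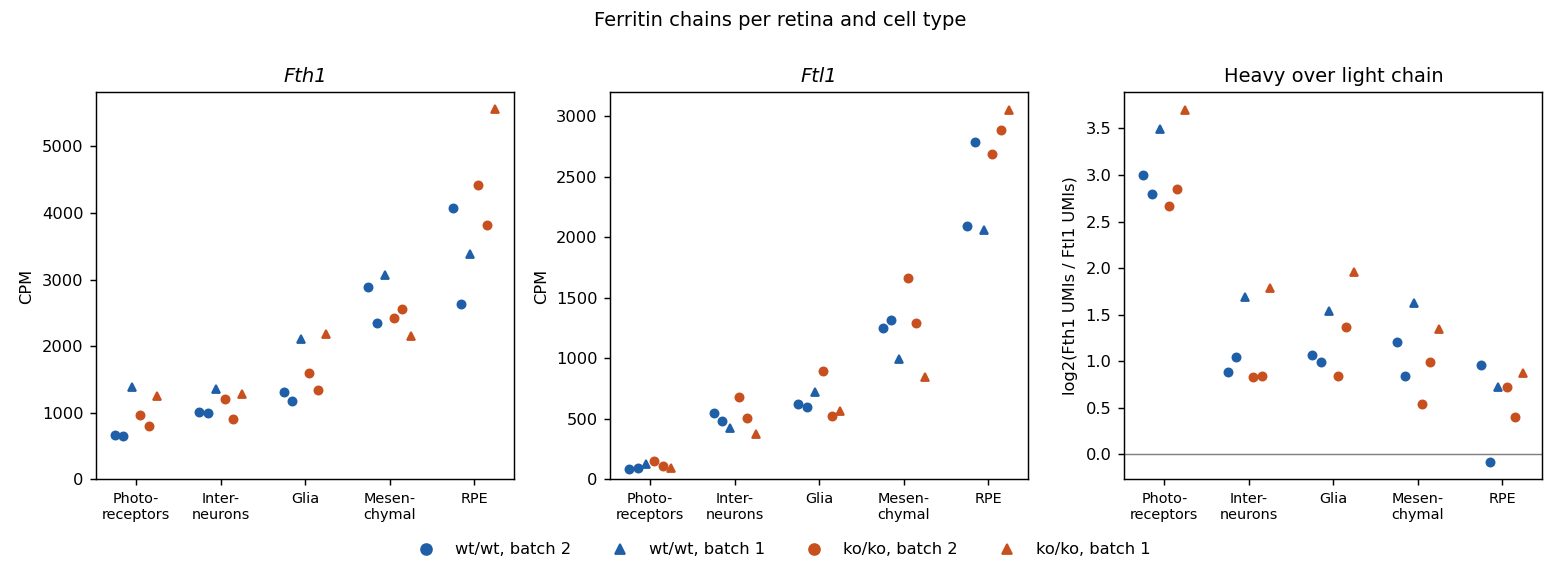
CPM of Fth1 and Ftl1 and the log2 ratio of their UMIs, 1 point per retina, by cell type, with colour for genotype and marker shape for batch. The ratio is highest in photoreceptors (6.35 to 13.0 before taking logs), and in all types but RPE cells the points of batch 1 lie above those of batch 2.

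The transferrin receptor had another order. Tfrc (chr16:32608920-32632794, plus strand) was highest in interneurons, at 119, 130 and 93.1 CPM in wt/wt retinas and at 85.5, 140 and 125 CPM in ko/ko retinas. Mesenchymal cells had 49.1 to 103 CPM, which overlaps because ko/ko replicate 3 reached 103 CPM while the other 5 retinas stayed at 49.1 to 64.0 CPM. Photoreceptors had 31.7 to 45.8 CPM and glia 6.70 to 55.0 CPM. In RPE cells only 3 Tfrc UMIs were counted, 1 in wt/wt replicate 1 and 2 in wt/wt replicate 3. Over all 151269 UMIs of RPE cells these are 19.8 CPM (95% Poisson interval 4.09 to 58.0, counting error only), under the lowest interneuron value of 85.5 CPM.

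Ferroportin was rare. Slc40a1 (chr1:45908068-45926523, minus strand) had 176 UMIs in typed cells, of which 115 were in interneurons and 42 in mesenchymal cells. Per UMI it was highest in mesenchymal cells, at 85.9, 53.4 and 99.3 CPM in wt/wt and at 64.0, 96.4 and 64.2 CPM in ko/ko retinas, above interneurons at 19.1 to 40.9 CPM without overlap. Glia had 3 UMIs, photoreceptors 16 and RPE cells 0. Over the 6 retinas the count of 0 allows up to 19.8 CPM in RPE cells (3 counts of the total), which is under the lowest mesenchymal value but leaves a level near the lowest interneuron value undetectable at this depth. Glia and photoreceptors were far below interneurons, at 0 to 6.88 CPM and 0.346 to 1.21 CPM.

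Read over the whole list, the highest type did not overlap with the next in 6 of 8 genes, the exceptions being Fth1 and Tfrc. Of 6290 genes that passed the filter on low counts over all sums, 28.5% did the same. Slc40a1 passed that filter only through mesenchymal cells, at 53.4 to 99.3 CPM against 40.9 CPM or less in the other types. Its lack of overlap was therefore bound to the filter and is no support. RPE cells were the highest type without overlap for 5 of 8, against 2.64% of the same 6290 genes. For Ftl1 this holds against the mesenchymal class as a whole, not against its cells with more microglial UMIs, given below. The 8 genes were chosen with earlier results of these data known. Mt1, Mt2 and Mt3 also followed each other over the sums of retina and type (Pearson's r of 0.83 to 0.94 for log2(CPM + 1)). The counts of 6 and 5 of 8 are therefore no test of the list. The cell types were clustered from these counts, so no p value is given between types. When TMM factors were applied over all sums, the log2 differences from RPE cells to glia fell from 4.90 to 4.28 for Mt1 and from 4.55 to 3.94 for Trf. Ftl1 then overlapped between RPE and mesenchymal cells, and the log2 difference of Fth1 between these types fell from 0.60 to 0.15.

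For each gene, those most like it over the 30 sums of 6 retinas and 5 types were found by Pearson's r of log2(CPM + 1) among 6289 genes. These sums share retinas, depth and the steps between cell types, and r is a description. Mt1 was most like Tmem256 (r = 0.943) and Mt2 (0.939), Mt2 like Mt1 and Sostdc1 (0.920), and Mt3 like Mt1 (0.928) and Skp1a (0.914). Fth1 was most like Ctsd (0.936), which encodes the lysosomal protease cathepsin D, and Fez2 (0.935), and Ftl1 was like Psap (0.978), the precursor of the lysosomal saposins. Trf was most like Gm20425 (0.995), which overlaps it. Tfrc was like Cyth1 (0.979) and Acbd6 (0.961), and Slc40a1 like Spock2 (0.958) and Filip1l (0.942). Fth1 and Ftl1 had r = 0.864 with each other.

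Some genes share UMIs with others by position or sequence. Gm22133, a miRNA model of 109 bases inside the last exon of Ftl1 on its strand, had 6455 UMIs where Ftl1 had 6561, exceeded Ftl1 in 0 of the 4216 cells that held it, and had r = 1.00 with it. Gm20425 shares 2108 of its 3028 exon bases with Trf on the same strand and had 4017 UMIs against 5108 for Trf. It exceeded Trf in 108 of the 990 cells that held it. How the counting divided or repeated reads between such pairs is not stated, so the Trf level may leave out reads listed under Gm20425 or count them in both, and likewise the Ftl1 level with Gm22133. If reads were divided there, the Ftl1 level would be short by nearly its own count, and the ratios of heavy to light chain would change with it. Gm22133 stayed at or under Ftl1 in all 4216 cells that held it, and whether reads were divided was not tested. Copies of the ferritin genes also took UMIs: Fth-ps2 had 1980 and Fth-ps3 325, beside 31056 for Fth1, while Ftl1-ps1 had 1196, Ftl1-ps2 27 and Ftl2-ps 12, beside 6561 for Ftl1. Reads that match several copies could be split between them, so the ferritin levels are uncertain by that amount, which is a larger share of the light chain than of the heavy chain.

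The mesenchymal class was split by marker UMIs, not by the 8 genes, into 90 cells with more microglial (C1qa, Csf1r and others) and 142 with more vascular UMIs (Cldn5, Pdgfrb and others), leaving 14 with neither. Trf was found mostly in the microglia-list cells, which held 261 of its 265 mesenchymal UMIs. They had 1505 CPM of Trf (95% Poisson interval 1328 to 1699) and the vascular-list cells 8.50 CPM (1.75 to 24.8), again with counting error only. Per retina the microglia-list cells had 1365, 1382 and 1277 CPM of Trf in wt/wt and 2267, 1807 and 777 CPM in ko/ko retinas, and the last value rests on 6 cells and 7 UMIs. The vascular-list cells had 0 to 32.9 CPM. Both ferritin chains were higher in the microglia-list cells in 6 of 6 retinas without overlap. Fth1 was at 3669 to 6250 CPM against 1284 to 2416 CPM, and Ftl1 at 1687 to 3554 CPM against 641 to 1184 CPM. How many of all genes split these subsets in this way was not counted, so the lack of overlap cannot be called particular to these genes. The values of RPE cells, 2631 to 5564 CPM for Fth1 and 2057 to 3046 CPM for Ftl1, overlapped with those of the microglia-list cells.

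Of the UMIs of Tfrc and Slc40a1 in mesenchymal cells, most were in the vascular-list cells. Slc40a1 was at 72.6 to 166 CPM per retina in vascular-list cells, and summed over retinas at 110.5 CPM (95% Poisson interval 78.6 to 151) there and at 17.3 CPM (3.57 to 50.6) in microglia-list cells, which had 3 UMIs in all. Tfrc, the transferrin receptor, was at 49.4 to 116 CPM per retina in vascular-list cells, and summed at 82.1 CPM (55.0 to 118) there and at 23.1 CPM (6.28 to 59.1) in microglia-list cells, which had 4 UMIs, so that the intervals of Tfrc overlapped. With 0 to 2 UMIs per retina of either gene in the microglia-list cells, their order within single retinas was not measurable at this depth. Mt1, Mt2 and Mt3 overlapped between the subsets. The class held 6 to 25 microglia-list and 15 to 30 vascular-list cells per retina.

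**Figure D4:**
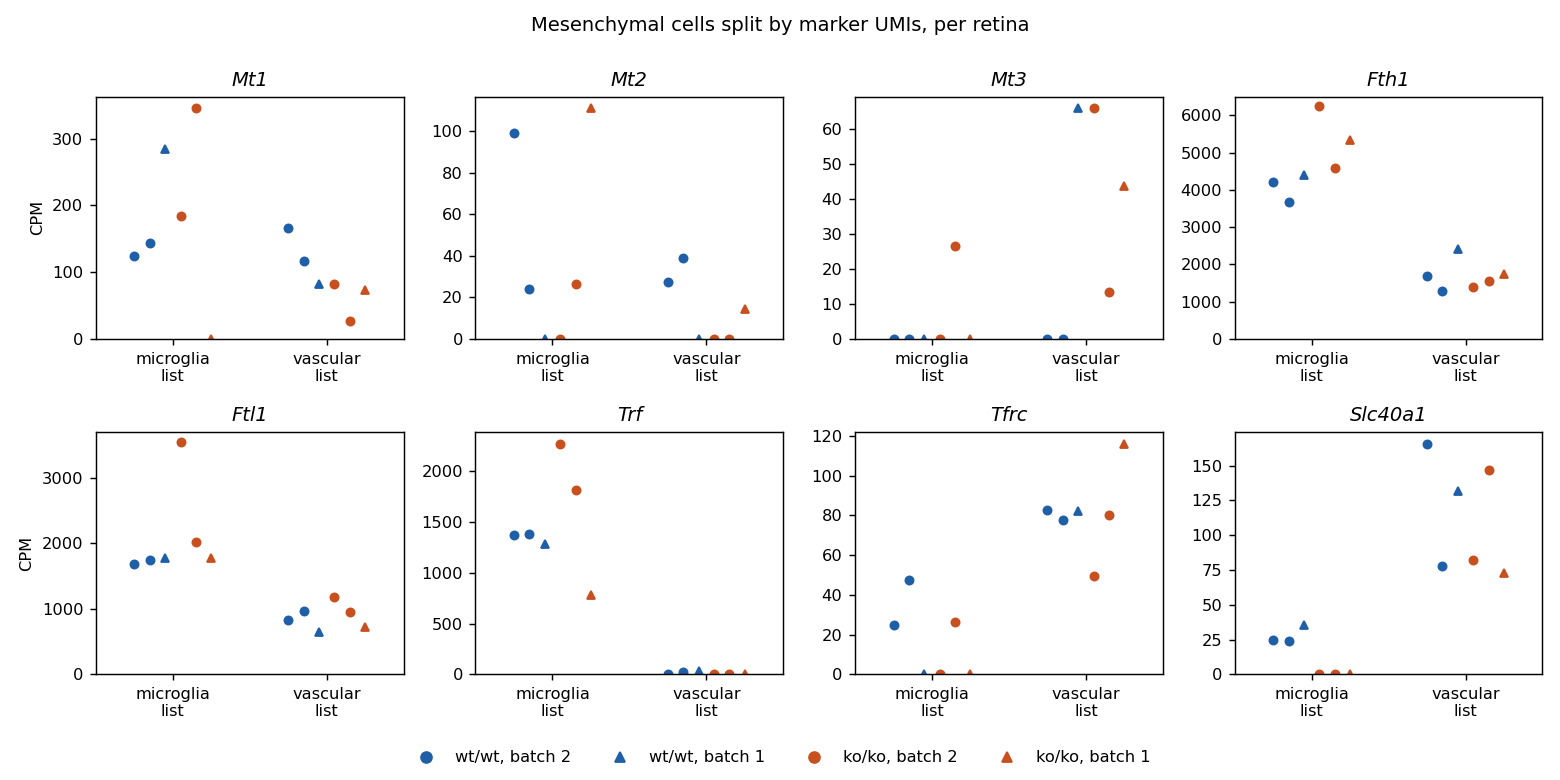
CPM of the 8 genes in mesenchymal cells with more microglia-list or more vascular-list UMIs, 1 point per retina, with colour for genotype and marker shape for batch. Trf, Fth1 and Ftl1 are higher in the microglia-list cells of all 6 retinas, while Tfrc and Slc40a1 points of the microglia-list cells rest on 0 to 2 UMIs each.

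The study compared ko/ko with wt/wt retinas to find what loss of Dram2 changes. None of the 8 genes passed the test for genotype in any cell type. The test was the quasi-likelihood test of edgeR on counts summed per retina, with adjusted p under 0.05 by Benjamini-Hochberg over all genes tested in a type as the threshold. The 8 genes passed the filter on low counts in 31 pairs of gene and type, 7 for photoreceptors, 8 for interneurons, 6 for glia, 4 for mesenchymal cells and 6 for RPE cells. The test called 0% of all genes in every type: photoreceptors (0 of 13053), interneurons (0 of 7698), glia (0 of 4130), mesenchymal cells (0 of 1717) and RPE cells (0 of 308). At an unadjusted p under 0.05 were 109, 86, 51, 150 and 11 genes in the same order. By limma-voom 0 genes were called in all types, and by DESeq2 1 gene was called, in RPE cells and not among the 8. The study itself, by limma-voom on cells aggregated per sample and type, reported significant genes in interneurons, mesenchymal cells and RPE cells. Its supplementary list of them holds none of the 8, and why its calls differ from those here was not tested. With batch as a covariate edgeR called genes of mesenchymal cells (31) and RPE cells (4) but 0 in the other types, with none of the 8 among them.

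In RPE cells the log2 fold change of ko/ko against wt/wt was 0.09 (SE 0.13) for Mt1, -0.02 (SE 0.18) for Mt2 and -0.14 (SE 0.22) for Mt3. It was 0.35 (SE 0.22) for Fth1, 0.23 (SE 0.21) for Ftl1 and -0.17 (SE 0.11) for Trf. The 95% interval was -0.20 to 0.38 for Mt1 and -0.42 to 0.08 for Trf, so that a change of 2-fold lay outside both. For Fth1 it was -0.15 to 0.85. Tfrc and Slc40a1 could be tested in interneurons, where the log2 fold changes were 0.09 (SE 0.25) and -0.05 (SE 0.40). The largest change of the 31 was that of Trf in photoreceptors, -0.63 (SE 0.31, edgeR adjusted p = 0.998), at 12.8 to 29.8 CPM. Over the alternatives this difference lay between -1.03, with ko/ko replicate 1 left out, and -0.44, with replicate 2 of that genotype left out. That of Trf in mesenchymal cells lay between -1.16 and -0.10, and Trf was called in neither type in any of them. Over the 31 pairs, the lowest edgeR adjusted p was 0.821.

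Among interneurons Mt2 was at 164 to 195.5 CPM in wt/wt and 201 to 277 CPM in ko/ko retinas, and Mt3 at 151 to 164 CPM in wt/wt and 120 to 138 CPM in ko/ko retinas. The genotypes did not overlap for these 2 of 8 genes, as for 6.21% of the 7698 genes tested in interneurons. They were the only such cases among the 37 pairs of gene and type with more than 3 UMIs, 1 above and 1 below wt/wt. Their log2 fold changes were 0.36 (SE 0.21) for Mt2 and -0.33 (SE 0.20) for Mt3, with edgeR adjusted p = 1.00 for both. The difference between Mt2 and Mt3 was not tested. The median log2 fold change of the genes tested among the 8 was -0.12 in photoreceptors, 0.06 in interneurons, 0.04 in glia, -0.37 in mesenchymal cells and 0.03 in RPE cells, beside medians of all genes between -0.02 and 0.03. With 1 retina left out at a time, the photoreceptor median lay between -0.29 (wt/wt replicate 2 left out) and 0.20 (replicate 3 of that genotype left out). The interneuron median lay between -0.06 and 0.12, the glial one between -0.0060 and 0.26, and the RPE one between -0.09 and 0.18. The mesenchymal median, between -0.64 and -0.14, was the only one of these to keep its sign in all 6 such fits. In mesenchymal cells the summed level of the 10 microglia-list markers was 19730 to 27428 CPM in wt/wt and 5457 to 17551 CPM in ko/ko retinas, without overlap, and none of these markers was at 0. Microglia-list cells numbered 20, 25 and 13 in wt/wt and 8, 18 and 6 in ko/ko retinas, and Trf, Fth1 and Ftl1 were higher in such cells, but the part of this mix in the mesenchymal values was not tested.

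The labelled batches, compared with genotype as a covariate, differed in more genes. Among the 8, Fth1 passed in photoreceptors and Trf in mesenchymal cells, while 0 of 8 passed in interneurons, 0 of 6 in glia and 0 of 6 in RPE cells. Of the 31 pairs of gene and type, 9 passed in at least 1 alternative. The test called 5.49% of 13749 genes in photoreceptors (2.39% higher in batch 1), 12.5% of 8429 in interneurons, 5.53% of 4790 in glia, 3.37% of 2109 in mesenchymal cells (1.99% lower in batch 1) and 6.86% of 379 in RPE cells. Fth1 in photoreceptors was at 1395 and 1253 CPM in batch 1 and at 651 to 966.5 CPM in batch 2, a log2 difference of 0.83 (SE 0.16, edgeR adjusted p = 0.0327). The share of mitochondrial UMIs was also higher in batch 1, as given above, and its part in the result was not tested. The call was lost without 5 of the 6 retinas in turn: the edgeR adjusted p was 0.167 without wt/wt replicate 1, 0.176 without wt/wt replicate 2, 0.281 without wt/wt replicate 3, 0.0902 without ko/ko replicate 2 and 0.0584 without ko/ko replicate 3. Without ko/ko replicate 1 the call held, at an edgeR adjusted p of 3.16e-05. The log2 differences of these fits ran from 0.56 to 1.10.

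Fth1 had a positive difference also in glia (log2 difference 0.48, SE 0.16, edgeR adjusted p = 0.0804), interneurons (0.32, SE 0.17, edgeR adjusted p = 0.231) and RPE cells (0.22, SE 0.23, edgeR adjusted p = 0.709), without passing the test. In mesenchymal cells it had -0.04 (SE 0.24, edgeR adjusted p = 0.964), which ran from -0.24 to 0.27 over the alternatives. Ftl1 in interneurons had -0.52 (SE 0.18, edgeR adjusted p = 0.0711) and Slc40a1 in interneurons -0.83 (SE 0.32, edgeR adjusted p = 0.0973). Mt1 in RPE cells had 0.20 (SE 0.14, edgeR adjusted p = 0.551). Some of these pairs passed elsewhere: Fth1 in glia and Ftl1 and Slc40a1 in interneurons did with limma-voom, Fth1 and Mt1 in glia and Fth1 in interneurons without the filter on low counts, and Fth1, Mt1 and Mt3 in glia, Fth1 and Ftl1 in interneurons and Mt1 in photoreceptors without ko/ko replicate 1.

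Trf in mesenchymal cells was at 419 and 89.9 CPM in batch 1 and at 474 to 675 CPM in batch 2, a log2 difference of -1.37 (SE 0.38, edgeR adjusted p = 0.0482). The summed level of the microglia list in these cells was 5457 and 19730 CPM in batch 1 and 9792 to 27428 CPM in batch 2. Within the microglia-list cells Trf was at 1277 and 777 CPM in batch 1, from 36 and 7 UMIs. In batch 2 it was at 1365 to 2267 CPM there, from 37 to 68 UMIs per retina. The part of the cell mix and of counting error in the batch difference was not tested. Without ko/ko replicate 3 the log2 difference was -0.59 (edgeR adjusted p = 0.763) and without wt/wt replicate 3 it was -2.62 (edgeR adjusted p = 0.00089). The call was also lost without each of the other 4 retinas, with edgeR adjusted p of 0.0948 to 0.150, with DESeq2 (adjusted p = 0.0710), and in edgeR with RLE size factors, without the filter on low counts, with the stricter cell filter and without the 5% of cells with most UMIs (adjusted p of 0.0538 to 0.0965). It held in 2 of 12 alternatives.

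**Figure D5:**
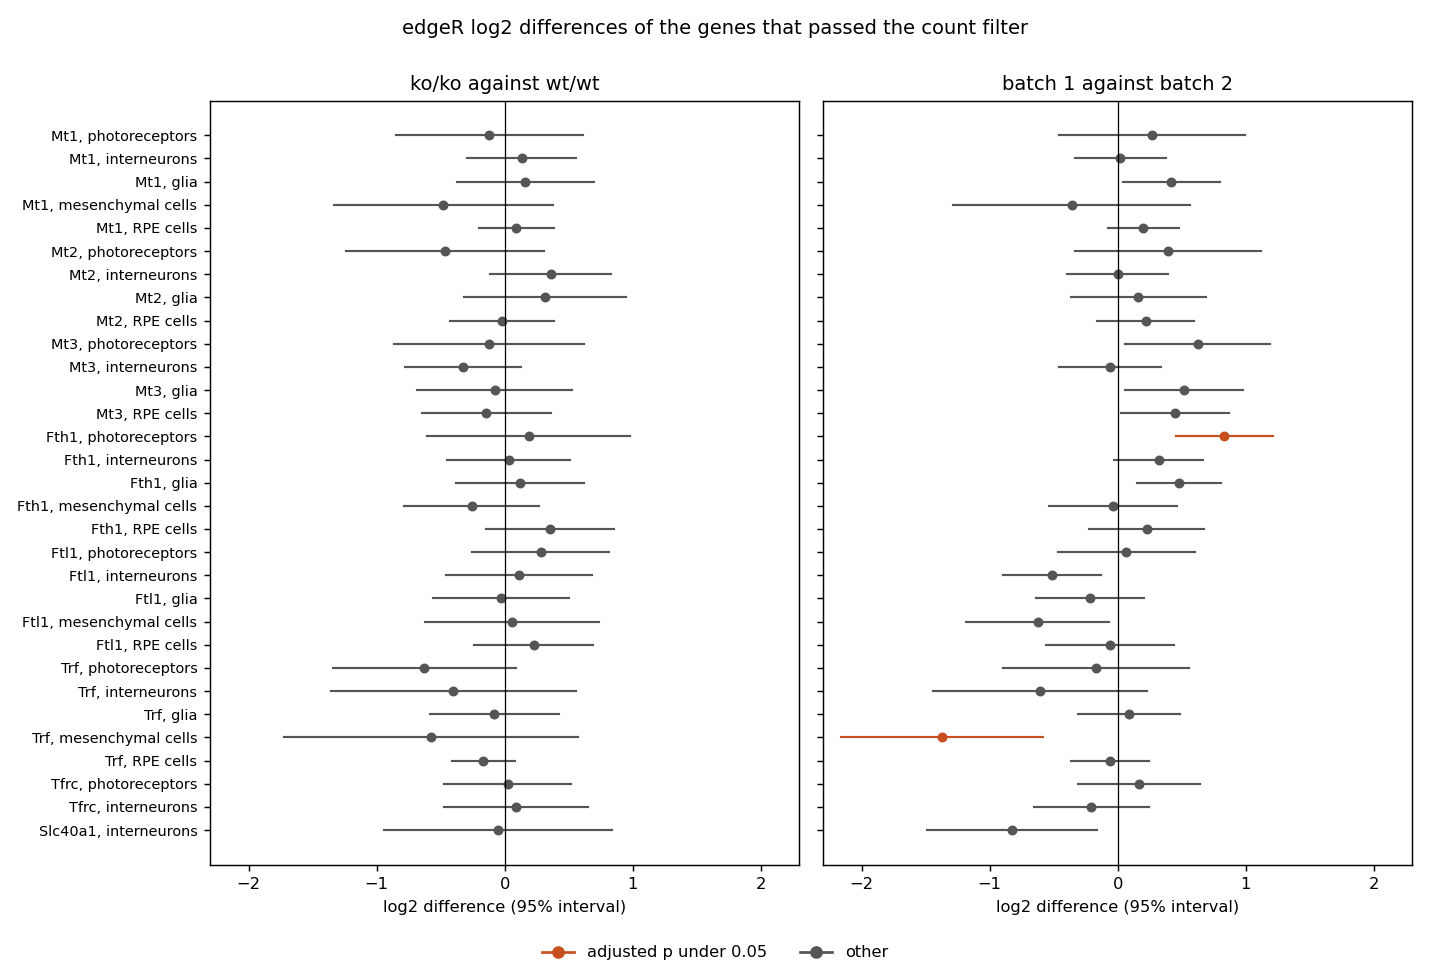
edgeR log2 differences with 95% intervals for each gene and cell type that passed the filter on low counts, ko/ko against wt/wt on the left and batch 1 against batch 2 on the right. For genotype no gene passed, and for batch Fth1 in photoreceptors (0.83) and Trf in mesenchymal cells (-1.37) passed.

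Of 44 other listed genes for iron and metal handling, 43 were in the table. For genotype 0 passed in any type, of 24 tested in photoreceptors, 14 in interneurons, 10 in glia, 4 in mesenchymal cells and 1 in RPE cells. For batch 1 of 25 passed in photoreceptors and 0 elsewhere: Pcbp2, an RNA-binding protein and iron chaperone that delivers iron to ferritin, had a log2 difference of 0.70 (SE 0.14, edgeR adjusted p = 0.0327), in a type where 5.49% of all genes passed. The Pcbp2 call was lost without each retina but ko/ko replicate 1, with edgeR adjusted p of 0.0811 to 0.269. Pcbp2 was also the most abundant of these genes in wt/wt photoreceptors (866 ± 321 CPM, SD, n = 3), interneurons (582.5 ± 64.7), mesenchymal cells (375 ± 95.6) and RPE cells (464 ± 59.3). In wt/wt glia it was Cp, encoding ceruloplasmin, the ferroxidase that works with ferroportin, at 850 ± 55.9 CPM, ahead of Pcbp2 at 340 ± 75.1 CPM. Next in line were Fbxl5, a subunit of the ligase that degrades iron regulatory protein, in photoreceptors (262 ± 36.1), Pcbp1 in interneurons (242 ± 9.39) and mesenchymal cells (226 ± 33.5), and Iscu, a scaffold for iron-sulfur clusters, in RPE cells (364 ± 75.1). In all 6 retinas Cp was highest in glia, at 563 to 936 CPM against 85.4 to 172 CPM in mesenchymal cells.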

How the data were processed

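Single cells of 6 retinas (3 wt/wt, 3 ko/ko) were sequenced with the 10x Genomics 3′ v2 kit. Per the labels and methods, the authors aligned reads to mm10 (GRCm38) with Cell Ranger 3.1.0 on exonic reads, and deposited raw UMI counts per gene and cell, not normalized, of 52636 genes. A second deposited table gave the retina, batch and cell type of each cell, the types being clusters that the authors made after integration over the batch. No column of another series was present (0 left unused). Doublets were not removed here, and an alternative left out the 5% of cells with most UMIs. Cell names did not repeat (0 repeats) and carry no barcodes, so barcodes shared between libraries were not counted. The labels do not state that each sample is a separate mouse, so p values measure the spread between these samples. They also describe the tissue as retina, while the series text speaks of choroid, and the retina labels were followed.

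UMIs were summed per retina and type and named with GENCODE M21 (147 identifiers without a symbol). Sums were compared in R 4.3.3 with edgeR 4.0.16 (glmQLFit and glmQLFTest, TMM, filterByExpr, Benjamini-Hochberg), with genotype as the only term, or batch with genotype as a covariate. Depth of the sums was 17073 UMIs (RPE) to 4675272 (photoreceptors). Limits for 0 are 3 counts, and these limits and the Poisson intervals cover counting error only. Alternatives were limma 3.58.1 (voom), DESeq2 1.42.0, RLE size factors, no filter, the replicate block, batch as a covariate, a stricter cell filter (500 UMIs or more, mitochondrial share of 10% or less), other scalings of CPM and each retina left out. The fits were tested on simulated counts with known changes. Other tools were Python 3.11.15, pandas 2.3.3, NumPy 2.4.6, SciPy 1.17.1 and Matplotlib 3.10.9.

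The 8 genes, the marker and iron gene lists and the tests were chosen with earlier results of these data known. Named were the 8 genes, listed iron genes that passed a test, the 2 highest of that list in each type of wt/wt retinas, and the 2 genes most like each member, of which 1 is not reported here. No p value over the list is given.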

Additional observations from a re-analysis of the deposited data

Results flagged for a closer look

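In 37 pairs of gene and cell type with more than 3 UMIs, each group of retinas was checked for a sample far from the rest, and chance alone marks about 1 in 20 such groups. In interneurons, Mt1 was lowest in wt/wt replicate 2, at 676 CPM, while the other 5 retinas were at 842 to 907 CPM. In mesenchymal cells, Ftl1 was highest in ko/ko replicate 1, at 1664 CPM, while the other 3 retinas of batch 2 were at 1252 to 1313 CPM. Tfrc in mesenchymal cells was highest in ko/ko replicate 3, at 103 CPM, while the other 5 retinas were at 49.1 to 64.0 CPM. That retina had the fewest microglia-list cells among its mesenchymal cells, 6, and Tfrc had 29 UMIs in vascular-list and 4 in microglia-list cells over all retinas, but the part of this mix in the value was not tested.

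The 629 cells without a type were in no comparison and held UMIs of the genes above the limit of 3 counts. They had 28 UMIs of Mt1, 8 of Mt2, 453 of Fth1, 295 of Ftl1, 9 of Trf and 8 of Tfrc, with 1 of Mt3 and 0 of Slc40a1. As levels these are 73.9 CPM for Mt1, 1195 CPM for Fth1 and 778 CPM for Ftl1. The Mt1 level lies inside the ranges of photoreceptors and mesenchymal cells, the Fth1 level inside those of photoreceptors, interneurons and glia, and the Ftl1 level inside that of glia.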

How the results depend on the processing

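The highest cell type of each of the 8 genes was unchanged in all 10 alternatives run, and the number of genes whose highest type did not overlap with the next ran from 5 to 7 of 8. TMM factors over the sums made Ftl1 overlap and lowered the difference to the next type to 4.38 for Mt2, 4.03 for Mt3 and 0.65 for Ftl1 on the log2 scale. Leaving out the 5% of cells with most UMIs made Slc40a1 overlap, and Fth1 no longer overlapped without wt/wt replicate 2, nor Tfrc without ko/ko replicate 3. For genotype, where edgeR called 0 genes, leaving out the filter on low counts gave 1 gene in photoreceptors, 1 in interneurons, 28 in mesenchymal cells and 3 in RPE cells. Batch as a covariate gave 31 in mesenchymal cells and 4 in RPE cells, the replicate block 32 and 4, and DESeq2 1 in RPE cells. With each retina left out, mesenchymal cells had 0 to 7 and RPE cells 0 to 2. None of the 8 genes was called for genotype under any of these, and 16 of 31 pairs changed sign under some alternative. Mt2 in RPE cells turned to 0.0290 with the batch covariate and to 0.0289 with the replicate block. With 1 retina left out, the log2 fold change in RPE cells ran from -0.0315 to 0.22 for Mt1, -0.16 to 0.18 for Mt2 and -0.33 to 0.0351 for Mt3, and in interneurons from -0.0554 to 0.26 for Tfrc and -0.31 to 0.36 for Slc40a1. Deviations from the genotype mean had correlations of -0.07 to 0.10 in the 5 types for both retinas numbered 1, against 0.23 to 0.58 for numbers 2 and 3. Those of wt/wt replicate 1 with ko/ko replicate 2 were 0.16 to 0.50. Since replicate 3 is the only batch 1 retina of each genotype, these values cannot tell whether the replicate numbers pair the retinas.

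For batch, no filter gave 2295 genes in photoreceptors and 0 in RPE cells. DESeq2 gave 437 in interneurons, 56 in glia, 22 in mesenchymal cells and 7 in RPE cells. In mesenchymal cells limma-voom gave 44, and removal of the cells with most UMIs 26. With each retina left out, photoreceptors had 20 to 4437, interneurons 364 to 2359, glia 32 to 1068, mesenchymal cells 24 to 88 and RPE cells 7 to 30. Fth1 in photoreceptors was called in 7 of 12 alternatives and Trf in mesenchymal cells in 2 of 12. The cause of these moves was not tested. Depth limits Tfrc and Slc40a1 most, with 3 and 0 UMIs in RPE cells.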

Other observations

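Hamp, which encodes hepcidin, the peptide that makes cells withdraw ferroportin from their surface, was singled out after its values were seen. It had 103 UMIs in interneurons, 14 in photoreceptors, 1 in mesenchymal cells and 0 in glia and in RPE cells. The interneuron level was 27.2 ± 5.63 CPM in wt/wt and 25.2 ± 3.62 CPM in ko/ko retinas (SD, n = 3 each). Slc40a1 in the same interneurons was at 31.7 ± 8.74 CPM in wt/wt and 31.5 ± 10.8 CPM in ko/ko retinas. The near copy Hamp2 had 20 UMIs in interneurons, and the counting could split reads between the pair. Which kind of interneuron held these UMIs was not analysed here.

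Heph, the membrane ferroxidase hephaestin, was at 20.1 to 61.1 CPM in glia and at 0 to 113 CPM in RPE cells, where it rests on 6 UMIs, and at 0 to 0.642 CPM in photoreceptors. Cp was at 563 to 936 CPM in glia and had 1 UMI in RPE cells. Slc39a8, a zinc and iron importer, was at 12.8 to 89.9 CPM in mesenchymal cells (24 UMIs) and at 3.82 to 13.4 CPM in glia (12 UMIs). These genes were likewise named after their values were seen.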
